A study of Mus musculus with 6 samples.

Results

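The data described here are the messenger RNA counts of 53 genes of the lysosome and of autophagy in the mouse forebrain after 10 days on a high-fat diet. The genes were taken by their symbols from the deposited counts, in which they are 53 of 23282 listed genes, and all 53 were found, each as a single entry. They comprise 28 genes of the lysosome (5 membrane proteins, 7 proteases, 10 other hydrolases and their cofactors and 6 subunits of the proton pump) and 25 genes that carry out or control autophagy. All libraries were from wild-type male C57BL/6J mice that were 8–10 weeks old. The NCD group of 3 libraries came from mice on a normal chow diet (NCD), and the HFD group of 3 libraries came from mice on a high-fat diet (HFD) with 60 kcal% fat, each for 10 days. RNA was prepared from a hemisphere of the whole forebrain, after the olfactory bulbs and cerebellum had been removed. It was sequenced with the QuantSeq 3′ method, in which reverse transcription starts at the poly(A) tail, so reads lie close to transcript 3′ ends. The comparison addressed the question of which brain transcripts differ after a short exposure to dietary fat. Whether each library was a separate animal or a pool is not stated in the sources used here, so the spread between libraries may in part be technical.

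Lysosomes are acidic organelles in which proteases, glycosidases and lipid hydrolases break down material delivered by endocytosis and by autophagy. In autophagy, the ULK1 kinase complex and a lipid kinase complex start a membrane sheet that grows around cytosol and organelles, closes into an autophagosome and fuses with the lysosome. When nutrients are plentiful, mTORC1, a kinase on the lysosomal surface, restrains ULK1 and keeps the transcription factors TFEB and TFE3 out of the nucleus, whereas on starvation these factors enter it and bind a short element in the promoters of many lysosomal genes. Neurons depend on this system because they do not divide, and mutations in several of the genes below (Cln3, Tpp1, Ppt1, Grn, Psap, Gaa, Hexa) cause storage diseases or neurodegeneration. Much of autophagy is controlled through protein modification and turnover, which RNA counts do not measure.

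The element that TFEB and TFE3 bind has the core TCACGTGA, which reads the same on both strands and contains the shorter E-box CACGTG. RefSeq promoters on GRCm38.p6, from 250 bases before to 50 bases after a start site, were given for 44 of the 53 genes, as 52 promoters. TCACGTGA was in 7 of these 52 promoters (13.5%), against 0.974% of all 32851 promoters and 1.74% of the promoters of genes tested. CACGTG, counted with or without the longer core, was in 15 promoters of the 53 genes (28.8%), against 7.15% of all promoters and 9.67% of those of genes tested. The longer core was in 6 of the 30 promoters of lysosome genes and in 1 of the 22 promoters of autophagy genes. The sites are printed because they match the element that TFEB and TFE3, the factors in the list, bind. Each is given 5′ to 3′ on the strand of its gene with 10 bases on either side, and the capitals mark the core. In Ctsd, which encodes the main aspartyl protease of the lysosome, the printed bases lie at chr7:142387909-142387936 on the minus strand. In Ctsa, which encodes the protective protein for galactosidase and neuraminidase, there are 2 sites, at chr2:164833750-164833777 and chr2:164833767-164833794 on the plus strand. The sites of Mcoln1 (the calcium channel mucolipin 1) and Cln3 (a lysosomal membrane protein) lie at chr8:3500463-3500490 on the plus strand and chr7:126583341-126583368 on the minus strand. Those of the proton pump genes Atp6v1a and Atp6v0d1 lie at chr16:44139374-44139401 and chr8:105566051-105566078, both on the minus strand. The site of Atg3, a conjugating enzyme of autophagy, lies at chr16:45158747-45158774 on the plus strand.
Ctsd: cgcccgcgtcTCACGTGAcccgttgagg
Ctsa, first site: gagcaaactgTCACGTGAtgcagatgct
Ctsa, second site: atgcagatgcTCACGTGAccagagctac
Mcoln1: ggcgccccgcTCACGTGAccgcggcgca
Cln3: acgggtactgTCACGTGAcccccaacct
Atp6v1a: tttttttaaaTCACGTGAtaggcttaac
Atp6v0d1: cctactgcggTCACGTGAgacgcggtgc
Atg3: gagagtcgagTCACGTGAggccttaggt

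Counted from the start site to the first base of the core, the sites lay between 132 bases before it (Atp6v1a) and 5 bases after it (the second site of Ctsa). The start sites are those of the annotation, the match is one of letters, and binding was not measured in these samples.

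The total count was between 6842785 and 9689372 reads per library, and the 53 genes together held 0.823%, 0.821% and 0.829% of it in mice on the NCD, in the order of replicates 1 to 3 used throughout. Their share on the HFD was 0.805%, 0.807% and 0.751%. Levels are given as CPM, the counts of a library relative to its total and scaled with edgeR's TMM factors and not divided by gene length, so they are compared between libraries and not between genes. A count of 3, taken as the floor, was 0.316 to 0.431 CPM, and the lowest count of any of the 53 genes in any library was 21. HFD replicate 3 stood apart, with 7943 reads of growth hormone (Gh), a pituitary gene, against 12 to 71 in the other libraries, so fold changes that it moved by over 1.5 times are also given without it for the genes described by library. The forebrain markers Emx1, Neurod6 and Lhx2 were detected in every library. Of the cerebellar markers, Gabra6 had 0 counts in 5 libraries and 1 in the other and Cbln3 had 2 to 9, while Zic1 had 176 to 475, Pcp2 94 to 191 and En2 8 to 56.

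No gene of the list passed the test between the diets. With edgeR's quasi-likelihood test over 13771 genes, 0 of the 53 had an adjusted p under 0.05, as did 0% of all genes tested, where the smallest adjusted p was 0.519 after Benjamini-Hochberg adjustment. An unadjusted p under 0.05 was reached by 0 of the 53 genes, against 1.71% of all genes tested for higher and 1.98% for lower values on the HFD. DESeq2 gave 0 of the 53 at either threshold, and limma on quantile-normalized values gave 1 at the unadjusted threshold, Gaa. In 1 gene (Wipi2) the HFD values all lay above the NCD values, where the background share is 4.31%, and in 3 genes (Ctsf, Gaa, Glb1) they all lay below, where it is 4.49%. For a single gene, 3 against 3 libraries cannot give an exact permutation p below 0.1.

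Fold changes of the 53 genes were small. The log2 fold change (HFD over NCD) ran from -0.26 (Gaa) to 0.20 (Atg5), with 22 values above 0 and 31 below. Its median was -0.02, beside -0.0025 over all genes tested, of which 49.4% had values above 0. The 53 genes had a median of 70.9 CPM, against 21.7 CPM over all genes tested, and narrower errors. The median standard error was 0.13 on the log2 scale against 0.16 over all genes tested. For 48 of the 53 genes (90.6%) the whole 95% interval lay within a 1.5-fold difference in either direction, against 62.5% of all genes tested, and for all 53 it lay within 2-fold. The 5 genes whose interval reached past 1.5-fold were Cln3, Glb1, Gusb, Tfeb and Atg2a.

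**Figure D1:**
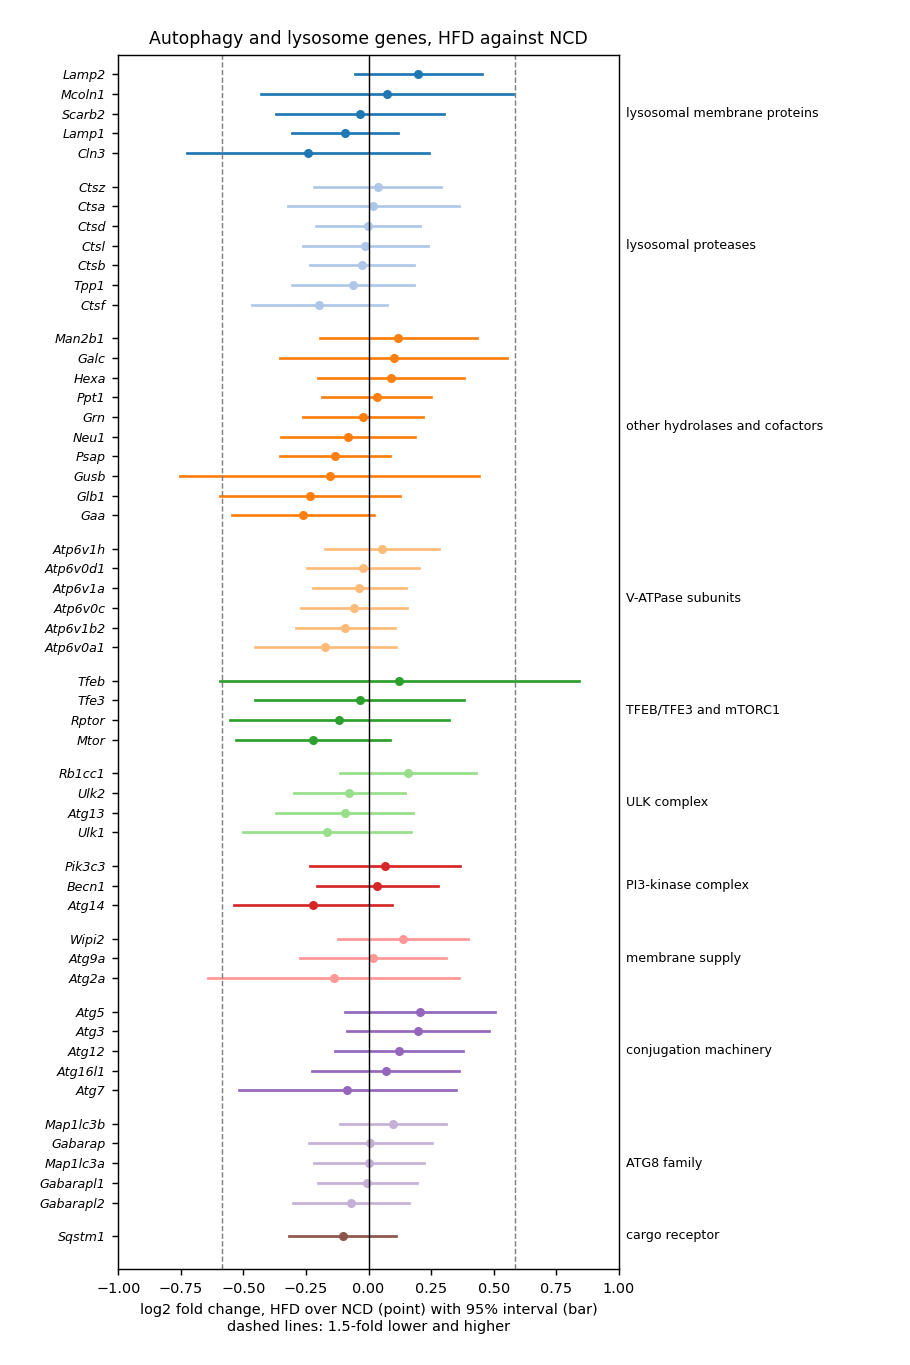
Log2 fold change of each of the 53 genes (points, horizontal axis, HFD over NCD) with its 95% interval (bars) from edgeR, with the genes grouped by role on the vertical axis and dashed lines at 1.5-fold. All 53 intervals include 0, and 48 stay between the dashed lines.

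**Figure D2:**
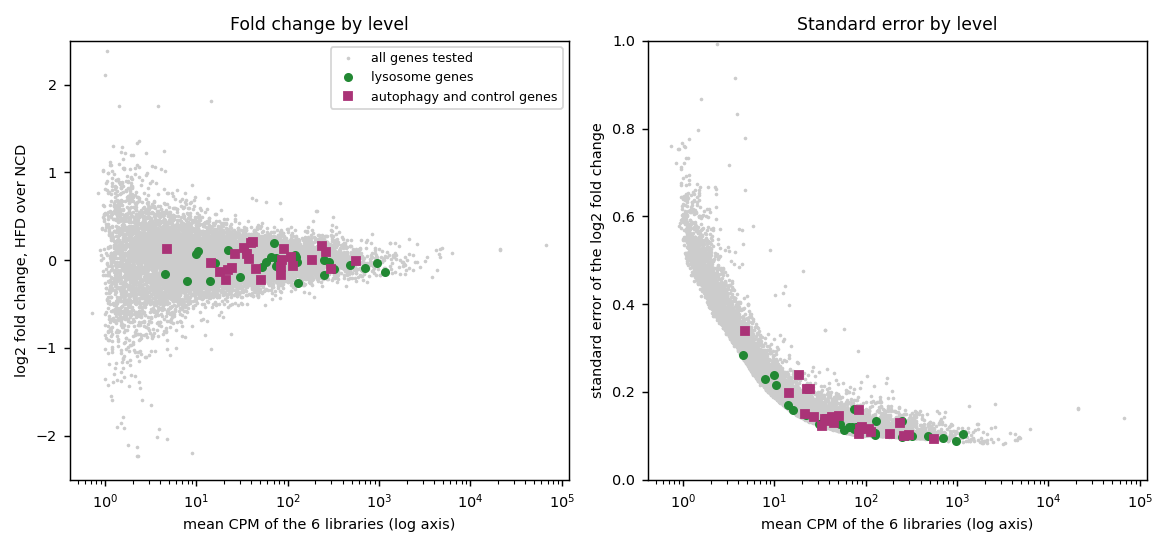
Log2 fold change (left) and its standard error (right, log2 scale) against the mean CPM of the 6 libraries on a log axis, for all 13771 genes tested (grey) and for the 28 lysosome and 25 autophagy and control genes (coloured). The 53 genes lie within the band of other genes of like CPM, and their median standard error is 0.13.

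Of the lysosomal membrane proteins, 2 of 5 had higher and 3 lower values on the HFD, with a median log2 fold change of -0.03 and none past the test. Lamp1, the abundant glycoprotein that lines the lysosome, had 329.9, 309.7 and 361 CPM on the NCD and 317, 298 and 321 CPM on the HFD. The groups overlapped (334 ± 25.9 against 312 ± 12.3 CPM, SD, n = 3), and the log2 fold change was -0.10 (standard error 0.10, 95% interval -0.31 to 0.12). Lamp2, the related glycoprotein that takes part in chaperone-mediated autophagy and in fusion with autophagosomes, had 59.6, 76.5 and 61.6 CPM on the NCD and 77.0, 70.3 and 80.0 CPM on the HFD. It was lower in NCD replicates 1 and 3 than in all HFD libraries, but NCD replicate 2 lay among these. Its log2 fold change was 0.20 (standard error 0.12, 95% interval -0.06 to 0.45), and edgeR's unadjusted p was 0.117. Without NCD replicate 2 it was 0.32, and edgeR then gave an unadjusted p of 0.0278 and an adjusted p of 0.97. The adjusted p over all alternatives was 0.856 to 1. Cln3, mutated in juvenile Batten disease, had 9.74, 9.04 and 6.73 CPM on the NCD and 7.19, 8.07 and 6.18 CPM on the HFD. The groups overlapped, and the log2 fold change was -0.24 (standard error 0.23, 95% interval -0.72 to 0.24), with -0.15 without HFD replicate 3. Scarb2, which carries glucocerebrosidase to the lysosome, and Mcoln1 were at a log2 fold change of -0.03 and 0.07.

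The 7 proteases were close to even between the diets (2 higher and 5 lower in value, median log2 fold change -0.01). Ctsd, encoding cathepsin D, had 255, 237 and 253 CPM on the NCD and 239, 252 and 255 CPM on the HFD. All 3 HFD values lay inside the NCD range, and the log2 fold change was -0.0009 (standard error 0.10, 95% interval -0.21 to 0.21), with -0.02 without HFD replicate 3. Ctsb, encoding the cysteine protease cathepsin B, had 286, 299 and 265 CPM on the NCD and 281, 279.8 and 275 CPM on the HFD. The HFD values were close together inside the NCD range, and the log2 fold change was -0.02 (standard error 0.10, 95% interval -0.23 to 0.18), with -0.015 without HFD replicate 3. Ctsz, encoding the carboxypeptidase cathepsin Z, had 59.5, 59.1 and 74.1 CPM on the NCD and 68.6, 61.2 and 68.1 CPM on the HFD. Here too the HFD values were inside the NCD range, and the log2 fold change was 0.04 (standard error 0.12, 95% interval -0.22 to 0.29), with 0.01 without HFD replicate 3. Ctsf, encoding cathepsin F, had 32.7, 32.1 and 32.6 CPM on the NCD and 28.2, 26.4 and 30.5 CPM on the HFD. The NCD values were within 1 CPM of each other and every HFD value lay below them (32.5 ± 0.317 against 28.4 ± 2.04 CPM, SD, n = 3). Its log2 fold change was -0.20 (standard error 0.13, 95% interval -0.47 to 0.07), and edgeR's unadjusted p was 0.141, and the fold change was -0.25 without HFD replicate 3. Ctsl, Ctsa and Tpp1 were at a log2 fold change of -0.01, 0.02 and -0.06.

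The 10 glycosidases, lipid hydrolases and cofactors had 4 higher and 6 lower values and a median log2 fold change of -0.05. Gaa, the acid alpha-glucosidase that breaks down glycogen in the lysosome (chromosome 11, 119267887 to 119285454 on GRCm38), had the lowest fold change of the 53 genes and the smallest unadjusted p, 0.0663. It had 138, 144 and 139.9 CPM on the NCD and 129, 133 and 88.9 CPM on the HFD. The NCD values were close together, HFD replicates 1 and 2 lay a little below them, and HFD replicate 3 lay far below the rest (140.5 ± 3.02 against 117 ± 24.3 CPM, SD, n = 3). The log2 fold change was -0.26 (standard error 0.13, 95% interval -0.55 to 0.02) with all libraries and -0.10 without HFD replicate 3. Leaving out HFD replicate 1 or 2 instead gave -0.34 and -0.37, with unadjusted p-values of 0.0375 and 0.029 and adjusted p-values of 0.839 and 0.963 from edgeR. Over all alternatives the adjusted p was 0.839 to 1.

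Glb1, the acid beta-galactosidase, had 17.5, 13.8 and 14.2 CPM on the NCD and 12.5, 12.9 and 13.2 CPM on the HFD. The HFD values all lay below the NCD values (15.2 ± 2.04 against 12.8 ± 0.336 CPM, SD, n = 3), with a gap of less than 1 CPM between the ranges, and the log2 fold change was -0.23 (standard error 0.17, 95% interval -0.59 to 0.12). Part of the count may belong to Tmppe, with which Glb1 shares exon sequence on the same strand. Psap, the precursor of the saposins that present sphingolipids to the hydrolases, had 1148, 1115 and 1405 CPM on the NCD and 1180, 1124 and 1037 CPM on the HFD. NCD replicate 3 was the highest and HFD replicate 3 the lowest library, and the log2 fold change was -0.13 (standard error 0.10, 95% interval -0.35 to 0.08). It was -0.09 without HFD replicate 3 and -0.02 without NCD replicate 3. Man2b1, the lysosomal alpha-mannosidase, had 21.1, 24.7 and 18.5 CPM on the NCD and 23.6, 24.3 and 21.8 CPM on the HFD. The groups overlapped, and the log2 fold change was 0.12 (standard error 0.15, 95% interval -0.19 to 0.43). Gusb (beta-glucuronidase), with 24 counts in its lowest library, had a log2 fold change of -0.16 with a 95% interval of -0.76 to 0.44, and the values of Hexa, Galc, Neu1, Ppt1 and Grn were between -0.08 and 0.10.

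The V-ATPase is the proton pump that acidifies the lysosome and other vesicles, synaptic vesicles included. Of its 6 subunits in the list, 1 had a higher and 5 a lower value on the HFD, with a median log2 fold change of -0.05, and their summed level was 2580 to 2768 CPM on the NCD and 2527 to 2656 CPM on the HFD. Atp6v1a, the catalytic subunit, had 1003, 956 and 960.1 CPM on the NCD and 929.9, 978 and 938 CPM on the HFD. The groups overlapped, and the log2 fold change was -0.04 (standard error 0.09, 95% interval -0.22 to 0.15). Atp6v1h, a regulatory subunit, had 127, 118 and 105 CPM on the NCD and 123, 121 and 119.8 CPM on the HFD, a tight HFD group inside the NCD range. Its log2 fold change was 0.05 (standard error 0.11, 95% interval -0.17 to 0.28). Atp6v0a1, a membrane subunit found in neurons, had 277, 247 and 274 CPM on the NCD and 259, 269 and 180.2 CPM on the HFD. HFD replicate 3 was the lowest library and HFD replicates 1 and 2 lay inside the NCD range, and the log2 fold change was -0.17 (standard error 0.13, 95% interval -0.45 to 0.11), which was -0.01 without HFD replicate 3.

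The genes of the controlling kinase and of the transcription factors were 1 higher and 3 lower in value, with a median log2 fold change of -0.08 that was 0.11 without HFD replicate 3. Mtor, the kinase of mTORC1, had 54.4, 60.1 and 49.1 CPM on the NCD and 54.0, 50.1 and 36.0 CPM on the HFD. HFD replicate 3 was the lowest library and HFD replicates 1 and 2 lay within the NCD range. The log2 fold change was -0.22 (standard error 0.15, 95% interval -0.53 to 0.09), and -0.07 without HFD replicate 3. Rptor, the subunit of mTORC1 that binds substrates, had 27.0, 26.2 and 17.1 CPM on the NCD and 24.9, 25.1 and 14.6 CPM on the HFD. In each diet the third library was the lowest, and the log2 fold change was -0.12 (standard error 0.21, 95% interval -0.55 to 0.32). It was 0.10 without HFD replicate 3 and -0.30 without NCD replicate 3. Tfeb had 5.55, 2.26 and 5.79 CPM on the NCD and 5.75, 4.91 and 4.12 CPM on the HFD. These are few reads (21 to 55 per library), NCD replicate 2 was the lowest library, and the log2 fold change was 0.12 (standard error 0.34, 95% interval -0.60 to 0.84), the widest of the 53 genes. It was -0.20 without NCD replicate 2, 0.35 without NCD replicate 3 and 0.23 without HFD replicate 3. Tfe3 had 16.6, 15.2 and 11.99 CPM on the NCD and 17.2, 14.7 and 10.7 CPM on the HFD. The groups overlapped fully, and the log2 fold change was -0.03 (standard error 0.20, 95% interval -0.45 to 0.38), with 0.13 without HFD replicate 3.

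The 7 genes with TCACGTGA in a promoter covered about the same range of fold changes as the rest. Their log2 fold changes ran from -0.24 (Cln3) to 0.20 (Atg3) with a median of -0.0009 and 4 of 7 below 0. The 37 genes whose promoters were given and lacked it had a median of -0.06 and 25 values below 0. The difference was not tested.

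**Figure D3:**
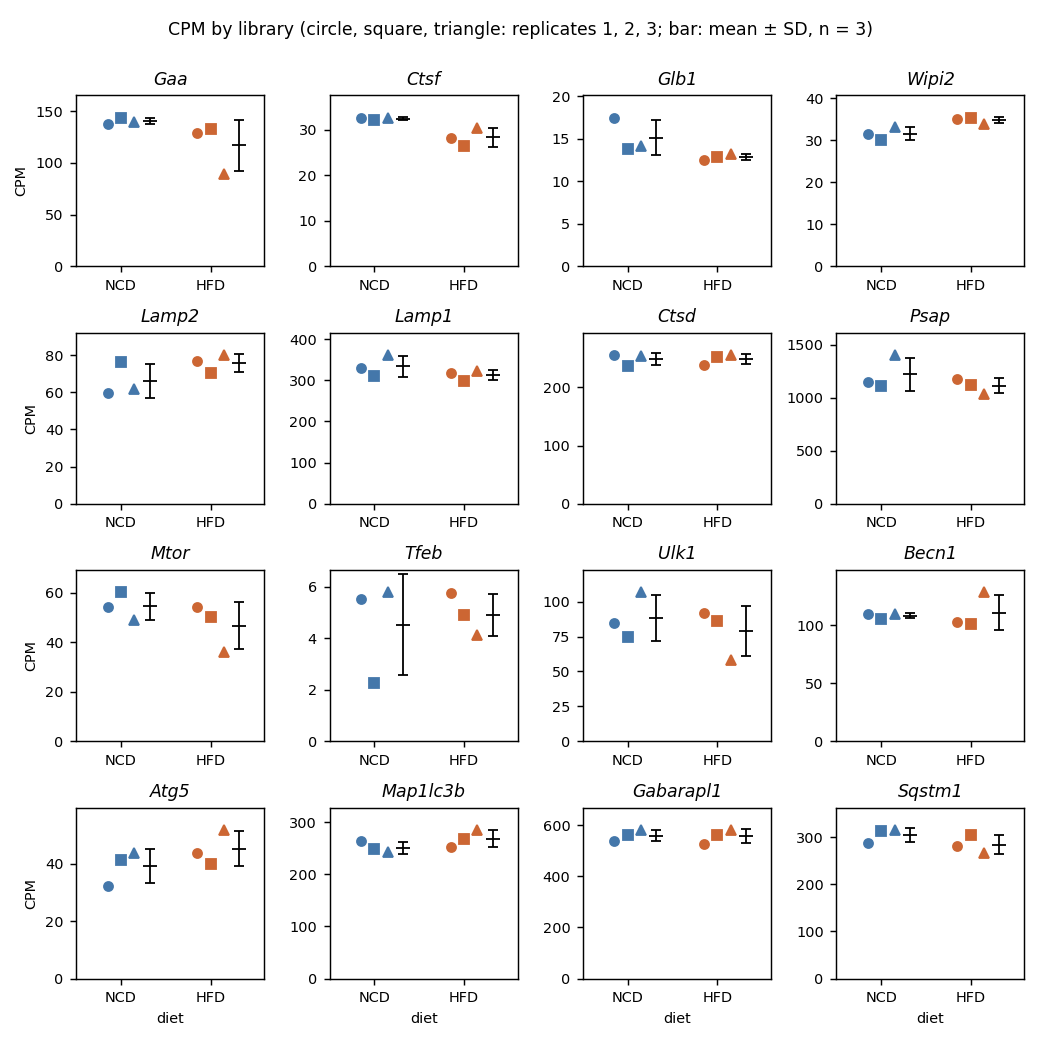
CPM (vertical axes, from 0) of 16 of the genes in each NCD and HFD library, with circle, square and triangle for replicates 1, 2 and 3 and a bar for the mean ± SD (n = 3). In Gaa, Mtor and Ulk1 the triangle of HFD replicate 3 is the lowest point, and in Ctsf, Glb1 and Wipi2 the diets do not overlap.

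Autophagy begins with the ULK complex, of whose 4 genes 1 had a higher and 3 a lower value (median log2 fold change -0.09). Without HFD replicate 3 the median was 0.0017, with 2 of 4 values above 0. Ulk1, the kinase that is phosphorylated by mTORC1, had 84.4, 74.4 and 107 CPM on the NCD and 92.0, 86.3 and 58.5 CPM on the HFD. NCD replicate 3 was the highest and HFD replicate 3 the lowest library. The log2 fold change was -0.17 (standard error 0.16, 95% interval -0.50 to 0.17), and 0.0085 without HFD replicate 3. Rb1cc1, the scaffold FIP200, had 245, 245 and 187 CPM on the NCD and 225, 238 and 293 CPM on the HFD. NCD replicate 3 was here the lowest and HFD replicate 3 the highest library, and the log2 fold change was 0.16 (standard error 0.13, 95% interval -0.11 to 0.43). Without HFD replicate 3 or without NCD replicate 3 it was 0.04. Ulk2 and Atg13 were at a log2 fold change of -0.08 and -0.10.

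In the lipid kinase complex that ULK1 activates, 2 of 3 genes had higher values, with a median of 0.04 that was -0.08 without HFD replicate 3. Becn1, encoding its scaffold Beclin 1, had 109, 105 and 109 CPM on the NCD and 103, 101 and 128 CPM on the HFD. HFD replicates 1 and 2 lay below the NCD values and HFD replicate 3 above them. The log2 fold change was 0.04 (standard error 0.11, 95% interval -0.21 to 0.28), and -0.08 without HFD replicate 3. Its last 500 bases share 79 bases with another annotated gene, Gm47050, so a part of its reads may have several alignments. Pik3c3, the lipid kinase itself, had 29.8, 26.2 and 22.6 CPM on the NCD and 25.4, 28.7 and 27.9 CPM on the HFD. The groups overlapped, and the log2 fold change was 0.07 (standard error 0.14, 95% interval -0.24 to 0.37). Atg14, which directs the complex to the site of autophagosome formation, had 22.1, 22.7 and 24.2 CPM on the NCD and 22.9, 19.3 and 17.0 CPM on the HFD. HFD replicate 1 lay within the NCD range and the other two below it, and the log2 fold change was -0.22 (standard error 0.15, 95% interval -0.54 to 0.09), with -0.13 without HFD replicate 3.

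Of the 3 genes that supply membrane to the growing sheet, Wipi2 had separate groups, and their median of 0.02 was 0.14 without HFD replicate 3. Wipi2, which binds the lipid made by this kinase and recruits ATG16L1, had 31.6, 30.0 and 33.1 CPM on the NCD and 34.9, 35.4 and 33.9 CPM on the HFD. The gap between the highest NCD and the lowest HFD value was less than 1 CPM (31.6 ± 1.55 against 34.7 ± 0.747 CPM, SD, n = 3). Its log2 fold change was 0.14 (standard error 0.12, 95% interval -0.12 to 0.40), and edgeR's unadjusted p was 0.28, and the fold change was 0.15 without HFD replicate 3. Atg9a, the lipid scramblase of the ATG9 vesicles, had 39.9, 37.3 and 34.7 CPM on the NCD and 41.2, 41.0 and 30.9 CPM on the HFD. HFD replicate 3 was the lowest library and the other HFD values the highest, and the log2 fold change was 0.02 (standard error 0.14, 95% interval -0.27 to 0.31), with 0.14 without HFD replicate 3. Atg2a, a lipid transfer protein, had 15.5, 15.6 and 26.6 CPM on the NCD and 20.6, 20.7 and 11.1 CPM on the HFD. The third library was the highest of the NCD and the lowest of the HFD, and the log2 fold change of -0.14 (95% interval -0.64 to 0.36) was 0.10 without HFD replicate 3.

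The conjugation machinery, which links ATG8 proteins to the lipid of the membrane, had a median log2 fold change of 0.12, with 4 of 5 values above 0 and none past the test. The summed level of the 5 genes was 220.1 to 229 CPM on the NCD and 232 to 259.9 CPM on the HFD, without overlap. It was 259.9 CPM in HFD replicate 3 and 232 and 237 CPM in HFD replicates 1 and 2. The sums of every other role group overlapped, and so did each of the 5 genes taken singly. Of all genes tested, 8.81% had diets that did not overlap, so a split in 1 of several sums is not read as a trait of these genes. Atg12, the ubiquitin-like protein joined to ATG5, had 97.0, 86.2 and 78.2 CPM on the NCD and 82.9, 94.4 and 107 CPM on the HFD. The groups overlapped, and the log2 fold change was 0.12 (standard error 0.12, 95% interval -0.13 to 0.38), with 0.03 without HFD replicate 3. Atg5, its partner, had the highest log2 fold change of the 53 genes and had 32.4, 41.2 and 43.7 CPM on the NCD and 43.8, 39.9 and 51.9 CPM on the HFD. NCD replicate 1 was the lowest and HFD replicate 3 the highest library, and the log2 fold change was 0.20 (standard error 0.14, 95% interval -0.10 to 0.51). It was 0.09 without HFD replicate 3 and also 0.09 without NCD replicate 1. Atg7, the activating enzyme of both conjugation steps, had 24.6, 26.6 and 24.4 CPM on the NCD and 28.3, 28.9 and 13.9 CPM on the HFD. HFD replicates 1 and 2 were the highest libraries and HFD replicate 3 the lowest by far. The log2 fold change was -0.08 (standard error 0.21, 95% interval -0.52 to 0.35), and 0.18 without HFD replicate 3. Atg3, which carries its TCACGTGA site, and Atg16l1 were at a log2 fold change of 0.20 and 0.07. The median of the conjugation genes was the highest of the role groups with all libraries. Without HFD replicate 3 it was 0.09, below the membrane supply genes (0.14) and the mTORC1 and TFEB/TFE3 genes (0.11). Without NCD replicate 3 it was 0.16, below the membrane supply genes (0.17). All 5 values were above 0 without HFD replicate 3.

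The ATG8 family, the ubiquitin-like proteins that coat the autophagosome and bind cargo receptors, had a median log2 fold change of 0.0025. Map1lc3a (LC3A) had 179, 179.6 and 191 CPM on the NCD and 172, 179.6 and 199 CPM on the HFD. Map1lc3b (LC3B), the usual marker of autophagosomes, had 264, 248 and 242 CPM on the NCD and 253, 268 and 286 CPM on the HFD. In both the groups overlapped, with log2 fold changes of 0.0025 (95% interval -0.22 to 0.22) and 0.10 (95% interval -0.11 to 0.31), which were -0.06 and 0.05 without HFD replicate 3. Gabarap had 89.2, 84.5 and 87.0 CPM on the NCD and 79.1, 81.2 and 102 CPM on the HFD. Gabarapl1 had 538, 561 and 581 CPM on the NCD and 528, 563 and 582 CPM on the HFD. Gabarapl2 had 116, 117 and 115 CPM on the NCD and 105, 102 and 124 CPM on the HFD. Their log2 fold changes were 0.0076, -0.0059 and -0.07, with standard errors of 0.12, 0.09 and 0.11, and were -0.12, -0.04 and -0.17 without HFD replicate 3. In Gabarap and Gabarapl2, HFD replicates 1 and 2 lay below every NCD value and HFD replicate 3 above, and HFD replicate 3 was the highest library for all 5 genes of the family. Without it, the median of the family was -0.06, with 1 of 5 values above 0.

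Sqstm1, encoding the cargo receptor p62 that is itself degraded by autophagy, had 288, 312 and 315 CPM on the NCD and 281, 305 and 266 CPM on the HFD. The lowest value was that of HFD replicate 3 and the groups overlapped (305 ± 15.2 against 284 ± 19.8 CPM, SD, n = 3), and the log2 fold change was -0.10 (standard error 0.10, 95% interval -0.32 to 0.11). It was -0.06 without HFD replicate 3.

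HFD replicate 3 set many of the extremes. Among the 6 libraries it was the highest for 14 and the lowest for 21 of the 53 genes, where it was the highest for 26.2% and the lowest for 27.2% of all genes tested. NCD replicate 3 came next, the highest for 16 and the lowest for 8, where it was the highest for 21.4% and the lowest for 21.7% of all genes tested. Each library's deviation from the mean of the other libraries was taken on log2(CPM + 1). Its SD over the 53 genes was 0.312 in HFD replicate 3 and 0.116 to 0.231 in the others. The 14 genes that were highest in HFD replicate 3 were the ATG8 family, Atg3, Atg5, Atg12, Becn1, Rb1cc1, Lamp2, Ctsl, Hexa and Galc. Among the 21 that were lowest were Mtor, Rptor, Tfe3, Ulk1, Ulk2, Atg13, Atg7, Gaa, Psap and Grn. By role, deviations were taken from the mean of all 6 libraries. Their median in this library was -0.42 for the 4 genes of the mTORC1 and TFEB/TFE3 group and 0.24 for the conjugation genes.

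These genes also differed in sequence. The last 500 bases of the transcripts had a median GC content of 41.4% for the 14 highest, 51.2% for the 21 lowest and 49.3% for the other 18 genes, and the median transcript lengths were 2492, 3633 and 2542 bases. Over the 53 genes, Spearman's rho of the deviation in HFD replicate 3 was -0.32 with GC content and -0.33 with length, and over 13233 genes tested it was -0.17 and -0.29. Values about as large were found over the 53 genes in other libraries, 0.31 with GC content in NCD replicate 3 and 0.39 with length in HFD replicate 2. These are descriptions across genes of 1 library, and the part of GC content, length or RNA quality in the values was not tested. Leaving HFD replicate 3 out turned the sign of 13 of the 53 fold changes, and the median log2 fold change of the 53 genes was then -0.01, with 25 values above 0 and 0 genes with an unadjusted p under 0.05.

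**Figure D4:**
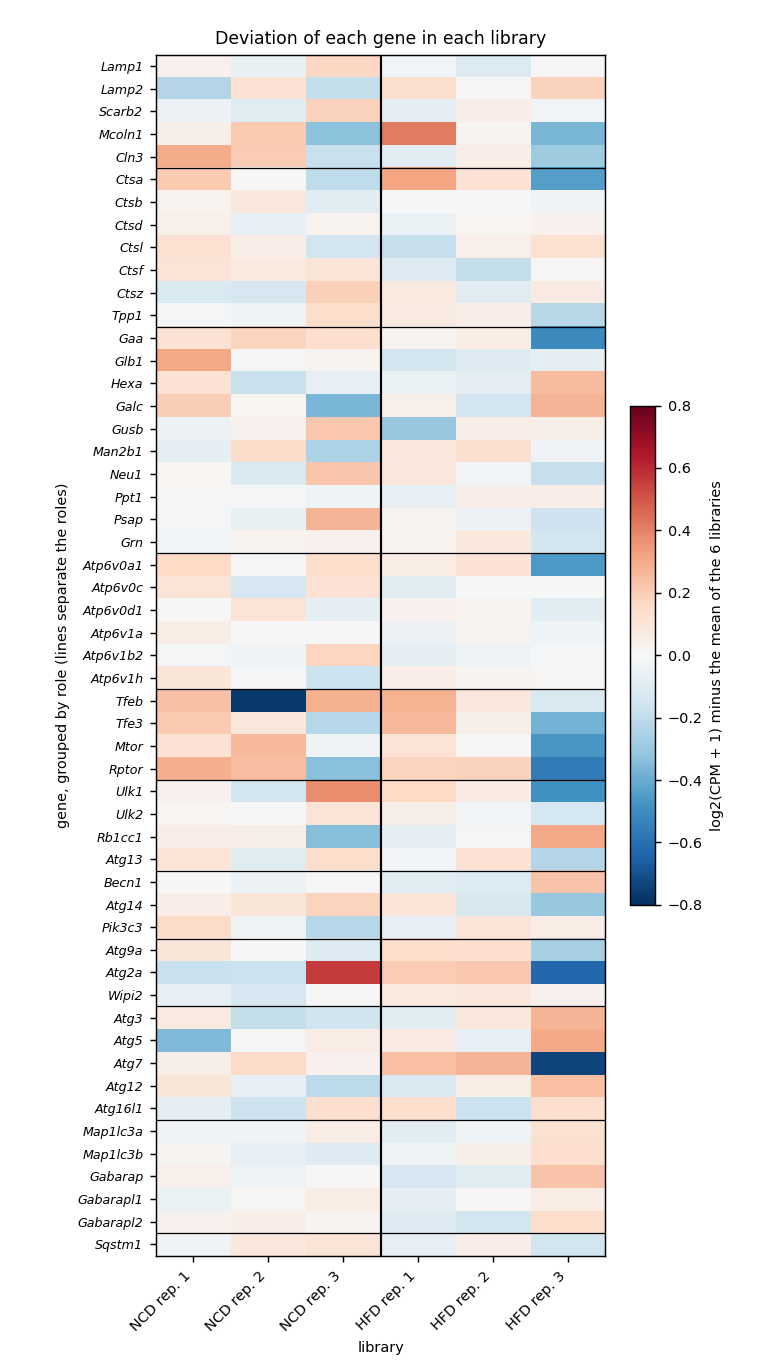
Deviation of log2(CPM + 1) from the mean of the 6 libraries (colour scale) for each of the 53 genes (vertical axis, grouped by role) in each library (horizontal axis, NCD left and HFD right of the line). Strong colours of both signs are spread widest in HFD replicate 3. The SD over genes there is 0.312 when the deviation is taken from the mean of the other libraries instead.

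**Figure D5:**
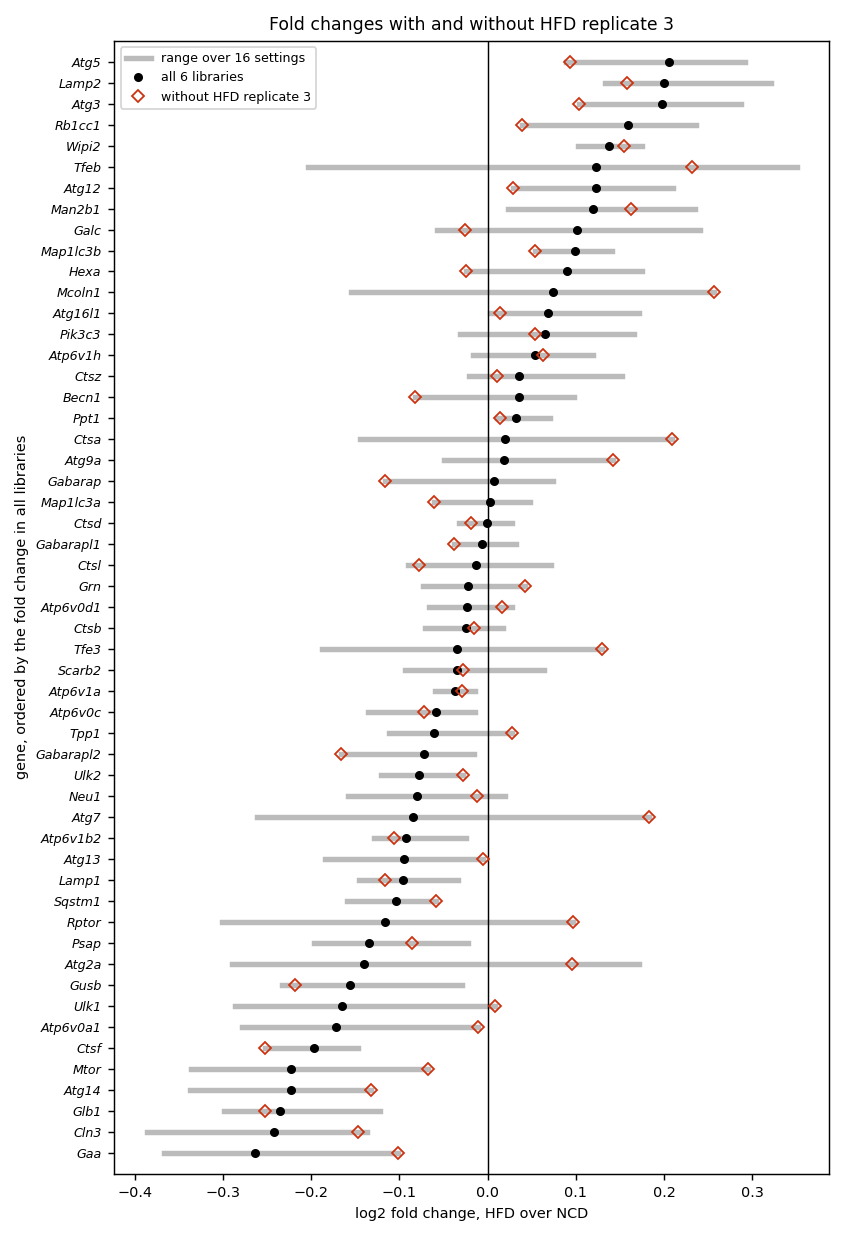
Log2 fold change of the 53 genes (horizontal axis) with all 6 libraries (black points) and without HFD replicate 3 (open diamonds), with grey bars for the range over 16 settings and the genes ordered by the first value. For 13 genes the diamond lies on the other side of 0 from the point.

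Other genes of the same pathways gave a like picture. Of 134 further genes listed from general knowledge, 132 were found in the deposited counts and 127 of these passed the filter on low counts. Of the 127, 62 had higher and 65 lower values on the HFD, with a median log2 fold change of -0.0025. With edgeR, 0 had an adjusted p under 0.05, and at an unadjusted p under 0.05 there were 1 higher and 1 lower gene. Of 49 other lysosome genes tested, 21 had higher and 28 lower values and none had an unadjusted p under 0.05. The highest value was that of Manba, the beta-mannosidase, at 0.37 (standard error 0.25). Of 13 other V-ATPase genes tested, 12 had higher values and 1 a lower value, with a median of 0.03, while 5 of the 6 subunits among the 53 genes had lower values. In Atp6v0a2, Atp6v0e2, Atp6v1c2 and Atp6ap1, all with higher values, HFD replicate 3 was the lowest of the HFD libraries. The median deviation of the 13 genes from the mean of the 6 libraries was 0.094 in HFD replicate 3. It was -0.034 and -0.007 in HFD replicates 1 and 2, against -0.044, -0.034 and -0.036 on the NCD. None of the 13 had an unadjusted p under 0.05, and the extremes were Atp6v1c2 at 0.41 (standard error 0.37) and Atp6v1g2 at -0.09 (standard error 0.10).

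Among 37 other autophagy genes tested, 13 had higher and 24 lower values, with a median log2 fold change of -0.06. Atg4c, a protease that processes ATG8 proteins, had 35.7, 33.2 and 37.0 CPM on the NCD and 25.4, 30.9 and 28.7 CPM on the HFD. Every HFD value lay below the NCD values, and the log2 fold change of -0.31 (standard error 0.13) had an unadjusted p of 0.0281 and an adjusted p of 0.979 in edgeR's test. Vamp8, a fusion protein of autophagosomes, had the highest value of this group, 0.28 (standard error 0.24). In the group of 28 other mTORC1 and nutrient-sensing genes, 16 had higher and 12 lower values. Fnip1, a partner of folliculin in nutrient sensing at the lysosome, had 67.5, 76.6 and 72.9 CPM on the NCD and 82.2, 85.0 and 90.7 CPM on the HFD. Every HFD value lay above the NCD values, and the log2 fold change of 0.25 (standard error 0.11) had an unadjusted p of 0.0324 and an adjusted p of 0.979 in edgeR's test. The extremes of this group were Depdc5, a subunit of the complex that restrains mTORC1 when amino acids are low, at 0.30 (standard error 0.19) and Mitf, a transcription factor related to TFEB, at -0.18 (standard error 0.16).

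The forebrain holds several cell types, each with lysosomes, and in bulk RNA fewer cells of a type and less RNA per cell cannot be told apart. The summed level of 12 microglia and macrophage markers was 510.4 to 518 CPM on the NCD and 527 to 550.5 CPM on the HFD, without overlap. In value 9 markers were higher and 3 lower, 0 had an unadjusted p under 0.05 in edgeR's test, and 0 of the 12 were at 0 in any library. Taken singly, 0 of the 12 had diets that did not overlap, where the share over all genes tested is 8.81%, and the sums of the other marker lists overlapped. The sum was 550.5 CPM in HFD replicate 3 and 536 and 527 CPM in HFD replicates 1 and 2, and some of these markers, Cd68 and Ctss among them, encode lysosomal proteins themselves. The sums of the neuronal markers (5136 to 5449 CPM on the NCD and 5043 to 5223 CPM on the HFD), the astrocyte markers (867 to 944 and 851 to 922 CPM) and the oligodendrocyte markers (7284 to 8424 and 8219 to 8880 CPM) overlapped between the diets, as did those of the endothelial markers (91.1 to 97.8 and 84.3 to 110.5 CPM), of which 4 of 5 were higher in value. Of 5 liver markers, 4 (Alb, Ahsg, Apoa1, Fgb) were lower on the HFD with an unadjusted p under 0.05, against 1.98% of all genes tested. The adjusted p of each was 0.979 from edgeR. The diets overlapped in Alb and Apoa1 and did not in Ahsg and Fgb. The remaining marker, Ttr, which was also listed for the choroid plexus, had a log2 fold change of 0.005. Alb, the albumin transcript, had 13.4, 26.8 and 3.89 CPM on the NCD and 2.01, 5.46 and 1.78 CPM on the HFD. The part of other tissue or of cell composition in the values of the 53 genes was not tested. Their own summed level was 8187 ± 256 CPM on the NCD and 7926 ± 97.9 CPM on the HFD (SD, n = 3), with overlapping ranges of 7937 to 8448 and 7834 to 8029 CPM.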

How the data were processed

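RNA of 3 NCD and 3 HFD forebrain libraries was made into QuantSeq 3′ libraries. After adaptor trimming the authors used Bowtie2 to align reads to mm10, counted unique and multiple alignments with Bedtools coverage and deposited raw read counts per gene. Versions, the gene annotation and the use of strand are not given in the sources used here. Groups were taken from the sample titles, and all columns of counts were used.

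The fit was made with edgeR 4.0.16 in R 4.3.3 (filterByExpr at a count of 10 and a total of 15, TMM, glmQLFit and glmQLFTest, two-sided, Benjamini-Hochberg adjustment over 13771 genes). The common biological coefficient of variation was 0.126. Alternatives used DESeq2 1.42.0, limma 3.58.1 on quantile-normalized log2(CPM + 1), other scalings and filters, robust estimation, leaving out single libraries and a replicate block. The floor of 3 counts covers counting error only. The scripts were tested on simulated data. Promoters, gene positions (GENCODE M21) and motifs were read with Python 3.11.15, and shared 3′ ends (at least 75 bases at 95% identity) were found with BLAST 2.17.0. Of the 53 genes, 4 (Ctsd, Ctsl, Glb1 and Atg9a) overlap exons of another gene on the same strand and 19 on the other, so their counts are uncertain to that extent.

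Named genes were those with an unadjusted p under 0.05, in each role group the one with the highest CPM and those with the highest and lowest fold change, and a fixed set of central genes. Of the other pathway genes, those with an unadjusted p under 0.05 and the extremes of each list were named, except 1 that is not reported here. The genes, lists and rules were chosen with earlier results of these data known.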

Additional observations from a re-analysis of the deposited data

How the results depend on the processing

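The count of the 53 genes with an adjusted p under 0.05 was 0 under all 15 alternatives. The count with an unadjusted p under 0.05 was 1 with quantile normalization and limma and 1 without a filter, and 0 to 1 with 1 library left out. The gene was Gaa in the former cases, with adjusted p-values of 0.978 from limma and 0.941 from edgeR, and Gaa or Lamp2 in the latter. Over all genes tested, DESeq2 gave 2 with an adjusted p under 0.05, and leaving out the filter gave 23 and raised those with an unadjusted p from 507 to 902, none of the 23 being among the 53. With 1 library left out there were 0 to 3 genes with an adjusted p under 0.05 (3 without NCD replicate 3) and 411 to 773 with an unadjusted p (773 without HFD replicate 1). With 1 library left out, 8 to 10 of the 53 genes (15.1% to 18.9%) had diets that did not overlap, against 4 with all, and the share over all genes tested was then 18% to 20.4%, against 8.81% with all. The median log2 fold change of the 53 genes stayed below 0, from -0.04 with library size alone, where the median over all genes was -0.02, to -0.01 without HFD replicate 3.

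Libraries of the same number did not deviate together (correlations of -0.04, 0.03 and -0.07). With a replicate block, 0 of the 53 genes and 371 of all genes had an unadjusted p under 0.05, and the median of the 53 was -0.02. Of 495 fold changes of 33 named genes under the alternatives, 5 passed an unadjusted p of 0.05 and 33 had the other sign. Shifts were also compared with the spread between replicates. In groups this small, leaving out a single library can hardly move a fold change that far, so that comparison says nothing of how stable the values are.

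With 3 libraries per diet and counts as low as 21, a 1.5-fold difference lies inside the 95% interval of Tfeb, Gusb, Cln3, Glb1 and Atg2a.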
